A study of Mus musculus and Rattus norvegicus with 6 samples.

Results

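The imprinted miR-379 to miR-410 cluster is a run of miRNA genes in the Dlk1-Dio3 locus, and its mature products were followed here in the retina of mouse and rat. Members were taken by number: every listed mature miRNA whose name carries 1 of 35 numbers of this cluster, with any letter or arm. The rule used no measured value. It found 76 of the 1915 names counted in mouse and 67 of the 764 names counted in rat, and 58 of these members stood under the same name in both tables, of 542 shared names in all. Small RNA was sequenced from retinas of wild type C57BL/6 mice and of wild type Sprague Dawley rats, all 9 weeks old and given no treatment that the labels name, with 3 libraries per species, called m1, m3 and m4 for mouse and r1, r2 and r4 for rat. The labels do not say whether a library came from 1 animal or from a pool. Each group was 1 strain, so species and strain cannot be told apart.

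A miRNA is cut from a hairpin in a longer RNA, and either side of the hairpin (the 5p arm or the 3p arm) can give the mature strand of about the length printed here. The strand guides Argonaute proteins to target messages mainly through its seed, bases 2 to 8, and represses them. The miR-379 to miR-410 hairpins lie one after another, are found in placental mammals, and are made from the maternally inherited chromosome. Their expression is known best in brain, where Mef2 drives the cluster when neurons are active and where member miR-134 restrains dendritic spines by repressing the kinase gene Limk1. The miR-376 hairpins are known targets of ADAR editing in brain.

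In the mouse genome (GRCm38.p6, RefSeq), 72 of the 76 mouse members had a mature sequence. Their hairpins were 38 genes on chromosome 12 between 109709060 and 109747960, a span of 38.9 kb, with 37 on the plus strand. The remaining gene, Mir496b, lies on chromosome 19, and its product was listed at 0 counts in every mouse library. Of 37 hairpins placed against GENCODE M21, 14 were inside the long noncoding gene Mirg (chr12:109729764-109749460, plus strand), 9 overlapping an exon and 5 in an intron. The other 23, on the miR-379 side, were in no annotated gene beyond the miRNA genes themselves. The members that held most of the counts or differed most between species are printed here in the order of their hairpins, as the mouse RNA from RefSeq, 5′ to 3′, with the seed in capitals.
miR-379-5p: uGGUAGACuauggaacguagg
miR-411-5p: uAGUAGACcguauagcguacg
miR-380-3p: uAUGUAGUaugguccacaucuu
miR-323-3p: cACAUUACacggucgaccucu
miR-329-5p: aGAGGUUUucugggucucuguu
miR-329-3p: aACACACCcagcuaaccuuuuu
miR-494-3p: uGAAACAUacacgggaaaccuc
miR-543-3p: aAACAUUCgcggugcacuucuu
miR-300-3p: uAUGCAAGggcaagcucucuuc
miR-381-3p: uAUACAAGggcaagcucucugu
miR-539-5p: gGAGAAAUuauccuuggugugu
miR-382-5p: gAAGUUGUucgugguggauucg
miR-382-3p: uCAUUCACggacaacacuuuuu
miR-134-5p: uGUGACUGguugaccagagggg
miR-541-5p: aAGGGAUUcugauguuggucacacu
miR-409-3p: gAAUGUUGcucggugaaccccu
Each of these 16 strands has its own seed. The miR-381-3p strand lies at chr12:109726870-109726891 and the miR-300-3p strand at chr12:109724363-109724384, and they differ at 3 positions counted from the 5′ end (G4A, U21G and C22U, with the base of miR-300-3p first), of which the first is in the seed.

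Members with nearly the same sequence are printed as a second set, because a short read from one could be counted for the other and how the authors treated such reads is not given in the sources used here.
miR-379-3p: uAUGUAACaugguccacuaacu
miR-411-3p: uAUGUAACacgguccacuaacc
miR-376b-5p: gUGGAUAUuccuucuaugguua
miR-376c-5p: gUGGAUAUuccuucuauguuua
miR-299a-3p: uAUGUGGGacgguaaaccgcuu
miR-299b-3p: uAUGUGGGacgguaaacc
The first pair differs at U10C and U22C (miR-379-3p first). The miR-376 pair differs at U19G (miR-376c-5p first). The miR-299 pair is identical over 18 bases, after which miR-299a-3p runs on for 4 more, and miR-299b is encoded on the opposite strand of the same hairpin region. Each pair shares its seed. The seed of miR-379-5p, GGUAGAC, also occurs in miR-1193-5p (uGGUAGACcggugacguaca), and seeds were shared by 7 pairs of members in all.

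The libraries held between 24169628 and 30514632 counts. Among members, log2 levels correlated at 0.998 or more (Pearson, across members) between mouse libraries and at 0.999 between r2 and r4, but at 0.981 between r1 and either of the others. Library r1 stood apart for members and for all names alike: 44 of 50 members with at least 10 counts in every rat library were lower in r1 than in the mean of r2 and r4 (88%), as were 84.5% of all 452 such names, with median ratios of 0.626 and 0.608. The largest gap was in miR-369-3p, at 340 counts in r1 and 2203 and 2548 in r2 and r4, while miR-379-5p was higher in r1. Markers of other cells moved with r1 too: miRNAs of lens, cornea and epithelium held 0.943% of its counts against 0.183% in r2, 0.121% in r4 and 0.0328% to 0.127% in mouse, and the neuronal miR-124 and miR-9 held 5.19% against 9.24% and 9.29%. The photoreceptor miRNAs miR-183, miR-96 and miR-182 held 48.9% of counts in r1, 36.1% in r2, 38.3% in r4 and 43.5% to 46.4% in mouse. Between species, pigment epithelium miRNAs (1.39% to 1.62% in mouse, 2.47% to 3.11% in rat) and vessel and mesenchyme miRNAs (0.424% to 0.507%, 0.761% to 0.804%) were higher in every rat library, and muscle miRNAs (0.0643% to 0.0884%, 0.0331% to 0.0421%) were lower in every rat library. The part of these differences in the results on members was not tested, and in whole retina fewer cells of a type and less of a miRNA per cell cannot be told apart.

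Most members were detectable in the retina of both species. At least 10 counts in each library were found for 53 of 76 members in mouse (69.7%, against 32.6% of all names listed) and 50 of 67 in rat (74.6%, against 59.2%). With a minimum of 1 count the numbers were 64 and 59. In mouse 8 members had no count in any library, among them both arms of miR-654, miR-453 and miR-1197-5p, and in rat 2 had none, among them miR-409b. A count of 0 allows up to 3 counts, which is 0.0983 to 0.124 CPM (counts scaled to the total of a library) in these libraries, for counting error only.

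As a whole the cluster was a small part of either retina. It held 0.612%, 0.639% and 0.624% of all counts in the mouse libraries and 0.673%, 0.823% and 0.814% in r1, r2 and r4. Every rat library was above every mouse library. The means were 0.625% ± 0.0137 and 0.770% ± 0.0842 (SD, n = 3 each), a ratio of 1.23, with p = 0.1 in a two-sided exact permutation test, the smallest p that 3 against 3 libraries can give. Other miRNAs of the Dlk1-Dio3 locus, for scale, held 1.16% ± 0.0436 and 1.62% ± 0.0917 (SD, n = 3 each).

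Inside the cluster the make-up differed far more than the total. In mouse, miR-381-3p alone made up 36.8% ± 2.29 of the cluster's counts (SD, n = 3), and in rat it made up 0.0948% ± 0.0124 (SD, n = 3). With miR-381-3p set aside, a choice made after its values were seen, the rest of the cluster held 0.395% ± 0.0166 of mouse counts and 0.769% ± 0.0840 of rat counts (SD, n = 3 each), a ratio of 1.95, again with p = 0.1 in the exact permutation test.

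**Figure D1:**
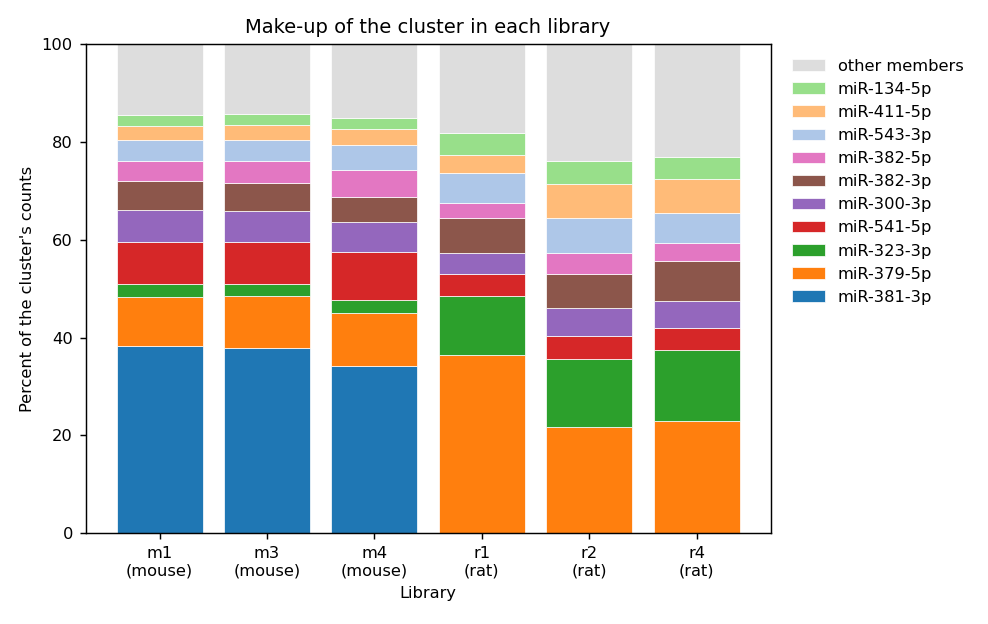
Percent of the cluster's counts (vertical axis, linear, from 0) held by 10 abundant members and by all others together in each of the 6 libraries; colours mark members as in the key. The block of miR-381-3p fills 34.1% to 38.2% of the 3 mouse bars and is too thin to see in the 3 rat bars, where miR-379-5p and miR-323-3p take the most room.

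The members also stood in another order in each retina. The following levels are CPM of all counts in a library, and members were ranked by their mean. In mouse miR-381-3p was at 2341, 2423 and 2129 CPM, followed by miR-379-5p, the first hairpin of the cluster, at 621, 683 and 680. Next came miR-541-5p at 531, 540.6 and 607 CPM, and miR-300-3p at 404, 408 and 390. These first 4 did not overlap with the member next in order. The arms of miR-382 came next, the 3p arm at 353, 369.1 and 313 CPM and the 5p arm at 253, 281 and 343, and overlapped. The 5 most abundant mouse members held 68.2% of the cluster.

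In rat miR-379-5p led, at 2445 CPM in r1, 1783 in r2 and 1852 in r4, which was 26.9% ± 8.17 of the cluster (SD, n = 3). The second was miR-323-3p at 812, 1136 and 1196.5 CPM, or 13.5% ± 1.34 (SD, n = 3). Each of these was clear of the next member in every library. Behind them miR-382-3p was at 483, 579 and 656 CPM, miR-543-3p at 414, 584 and 487.2, miR-411-5p at 250, 584 and 570, and miR-300-3p at 295, 465 and 460. From the third to the ninth place each rat member overlapped with the next. The tenth, miR-409a-3p, was listed under that name only in rat, at 262, 243 and 234 CPM, while the mouse table lists miR-409-3p, at 113, 114 and 128 CPM.

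For the comparison between species, the counts of the 542 shared names were scaled with TMM factors (an edgeR scaling that sets the bulk of miRNAs equal), and levels from here on are CPM on that scale. The factors were 0.864 to 0.967 for the mouse libraries, 0.806 for r1, 1.29 for r2 and 1.32 for r4. On this scale r1 stands higher against r2 and r4 than in CPM of all counts. A member was called when the edgeR quasi-likelihood test gave an adjusted p under 0.05 over all 398 names tested. Of 58 shared members 50 could be tested, and the other 8 never had more than 12 counts in a library. In rat 19 members were higher, 3 were lower and 28 were not called. The 19 include miR-539-3p, which entered the test through its rat counts alone. Over all names tested, 25.6% were called higher and 24.4% lower. The median log2 difference, rat minus mouse, was 0.47 over the members and 0.08 over all names. Rat libraries were all above the mouse libraries for 21 members and all below for 5, against 29.4% and 30.4% of all names (59.8% either way). The other Dlk1-Dio3 miRNAs stood at 2 higher, 7 lower and 12 not called of 21 tested, with a median of -0.36, and the difference between the lists was not tested.

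Without r1 the members higher in rat numbered 27 and the lower 8, while the share of all names called higher grew to 36.6% and that called lower to 34.4%. The added lower calls were miR-300-3p, miR-382-5p, miR-410-3p, miR-410-5p and miR-412-5p, with log2 differences from -1.03 to -0.25. The added higher calls were miR-1193-3p, both arms of miR-154, miR-299a-5p, miR-369-3p, miR-376b-3p, miR-376c-3p and miR-487b-3p. Of the 22 called members, 18 were called under every alternative that tested them, and the exceptions were both arms of miR-377, miR-382-3p and miR-543-3p.

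The fall of miR-381-3p was the largest difference of any member. It was at 3775, 3814 and 3046 CPM in mouse and at 10.6, 9.45 and 9.22 CPM in rat. All rat libraries were far below all mouse libraries, and the 6 values leave no overlap. The log2 difference was -8.51 ± 0.22 (SE; edgeR adjusted p = 1.34e-08), a 364-fold fall, and it stayed between -8.59 and -8.28 under every alternative run that tested it alone. In deposited counts the rat libraries had 131, 214 and 232 under this name, and 7122, 11765 and 12962 under miR-300-3p. Whether reads of miR-300-3p were counted as miR-381-3p in rat was not tested, so these counts do not settle whether the strand is present there. Its sequence neighbour miR-300-3p was at 651, 642 and 557 CPM in mouse and 574, 519 and 515 in rat, a difference of -0.20 ± 0.14 (SE; edgeR adjusted p = 0.265). Summing both, an alternative chosen after the values were seen, still gave -2.93 (edgeR adjusted p = 1.35e-06). Rat mature sequences were not used here, so whether the counted strands are identical between species was not tested.

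The other abundant member that fell was miR-541-5p, encoded in an intron of Mirg. It was at 857, 851 and 869 CPM in mouse and at 585, 432.9 and 395 CPM in rat. Mouse libraries were close together and all above the rat libraries, of which r1 was the highest on this scale. In CPM of all counts r1 was the lowest rat library, at 300 against 388 in r2 and 353 in r4. The difference was -0.87 ± 0.18 (SE; edgeR adjusted p = 0.00325). These were the only called falls among members of at least 10 CPM in a species. The third, miR-377-5p, was rare, with mouse libraries at 0.869, 1.34 and 1.07 CPM and rat libraries at 0.161, 0.397 and 0.636, and with a difference of -1.32 ± 0.42 (SE; edgeR adjusted p = 0.0277). That call was lost without m3, without m4, without r2 and on library totals.

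**Figure D2:**
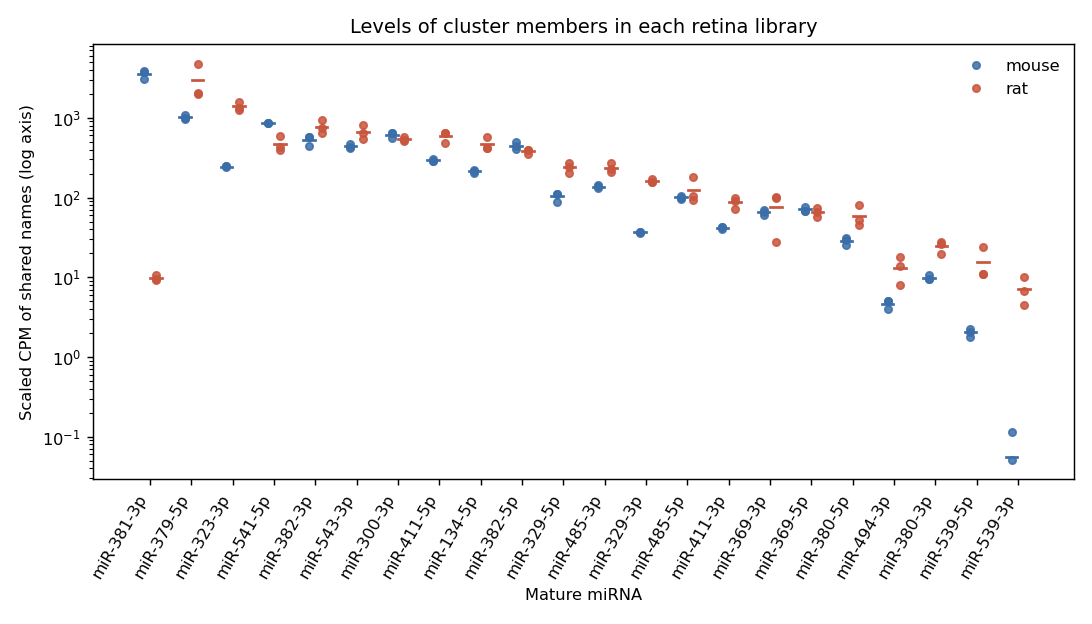
Level of 22 members in each library (points; CPM of shared names with TMM scaling, log axis) with the mean of each species as a line, mouse left and rat right of each tick. miR-381-3p is the only abundant member with mouse points far above rat points, miR-329-3p and miR-323-3p show tight groups with rat above, and 1 mouse library at 0 for miR-539-3p cannot be drawn on a log axis.

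The rises were led, among members of at least 10 CPM in a species, by miR-539-5p. It was at 1.80, 2.22 and 2.08 CPM in mouse and at 24.2 in r1, 10.9 in r2 and 11.01 in r4, a log2 difference of 2.90 ± 0.36 (SE; edgeR adjusted p = 2.14e-04). All rat libraries were above all mouse libraries and r1 was the highest, and the smallest difference under any alternative was 2.42. The opposite arm, miR-539-3p, described here for being from the same hairpin, had 2, 1 and 0 counts in mouse and 56, 150 and 256 in rat. It was the only tested member under 10 counts in every library of 1 species, so it entered the test through rat alone. Over summed counts the rat to mouse ratio was 144.1, with an exact 95% interval of 49.0 to 701 that covers counting error only.

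Next in size was miR-323-3p, with 247, 247 and 239 CPM in mouse and 1581, 1269 and 1341 CPM in rat. The mouse libraries hardly varied and the lowest rat library was far above them. The difference was 2.51 ± 0.15 (SE; edgeR adjusted p = 1.80e-06), and miR-323-3p ranked ninth among mouse members and second among rat members. A little further along the cluster, miR-329-3p was at 37.1, 36.5 and 36.3 CPM in mouse and at 169.9, 157 and 156 CPM in rat, a difference of 2.14 ± 0.14 (SE; edgeR adjusted p = 2.97e-06). Here too the groups did not overlap.

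The rise of miR-379-5p depended in size on r1. It was at 1000.4, 1075 and 973 CPM in mouse and at 4762 in r1, 1990.4 in r2 and 2075 in r4. All rat libraries were above the mouse libraries, but on this scale r1 was more than the other rat libraries together. In CPM of all counts r1 was at 2445 against 1783 in r2 and 1852 in r4, or 1.35 times their mean. The difference was 1.53 ± 0.32 (SE; edgeR adjusted p = 0.00410) and fell to 1.001 without r1, where it was still called. In miR-494-3p the pattern in r1 was the reverse: mouse libraries were at 3.995, 5.004 and 4.98 CPM and rat libraries at 7.98, 17.8 and 13.6, with r1 the lowest of the rat libraries but still above mouse. That difference was 1.502 ± 0.30 (SE; edgeR adjusted p = 0.00300). The last of the 6 largest rises was miR-380-3p, at 9.61, 10.5 and 9.44 CPM in mouse and 19.6, 27.5 and 25.9 CPM in rat, by 1.31 ± 0.20 (SE; edgeR adjusted p = 6.66e-04), again with no overlap.

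Most of the other called rises lay near 1 on the log2 scale. The 5p strand of miR-134, the member known from dendritic spines, was at 218, 224 and 203 CPM in mouse and at 573, 418 and 418 CPM in rat, a difference of 1.13 ± 0.17 (SE; edgeR adjusted p = 6.66e-04). The groups did not overlap. On this scale r1 was again the highest rat library. In CPM of all counts it was the lowest, at 294 against 374 in r2 and 373 in r4. For miR-411-5p, in contrast, r1 was the lowest rat library: mouse was at 289, 306 and 290 CPM and rat at 488, 652 and 639, a difference of 1.006 ± 0.16 (SE; edgeR adjusted p = 9.02e-04). Differences of like size were found for miR-758-3p (1.05 ± 0.17), miR-380-5p (1.02 ± 0.24), miR-329-5p (1.21 ± 0.17) and miR-323-5p (1.11 ± 0.22), and a smaller one for miR-485-3p (0.78 ± 0.16, all SE), and in none of these did the species overlap. In all, 15 members were called more than 2-fold higher and 2 more than 2-fold lower, against 17.1% and 12.8% of all names tested. The 15 include miR-539-3p, which entered the test through rat alone. The smallest called rises were of miR-382-3p (0.54 ± 0.19, SE; edgeR adjusted p = 0.0389) and miR-543-3p (0.60 ± 0.17, SE; edgeR adjusted p = 0.0174), both abundant. The call of miR-382-3p was lost without m1, m3, m4 or r4, and that of miR-543-3p without m1 or m3.

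The differences were spread unevenly along the cluster. Of 17 tested members whose hairpin starts within 10 kb of that of miR-379, a limit chosen after the values were seen, 13 were higher in rat, 0 were lower and 4 were not called, with the log2 difference above 0 for all 17 and a median of 1.06. Of the 33 beyond, 6 were higher, 3 lower and 24 not called, with 19 above 0 and a median of 0.12. Over all 398 names tested, 25.6% were called higher and 24.4% lower, with a median of 0.08. The number of all names above 0 is not given here, so the counts above 0 have no background to be read against. In order, the hairpins of these 17 members are miR-379, miR-411, miR-299a, miR-299b, miR-380, miR-323, miR-758, miR-329, miR-494, miR-1193 and miR-543. The members not called there were both arms of miR-299a, miR-299b-3p and miR-1193-3p. The hairpins of miR-1197, miR-679 and miR-495 lie in this stretch too but have no arm that was tested under one name in both tables. Alternatives also held lower calls in this stretch. With names joined loosely, miR-679-5p, which entered that test through its mouse counts alone, was called lower in rat. With no filter on low counts, so was miR-1193-5p, at 7, 4 and 6 counts in mouse and listed at 0 in every rat library (edgeR adjusted p = 0.00512). Across all 50 members, distance and log2 difference had a Spearman rho of -0.55, and -0.57 without miR-381-3p. That is a description over members that share one transcript region, libraries and, in pairs, a hairpin. Pearson's r was -0.24.

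**Figure D3:**
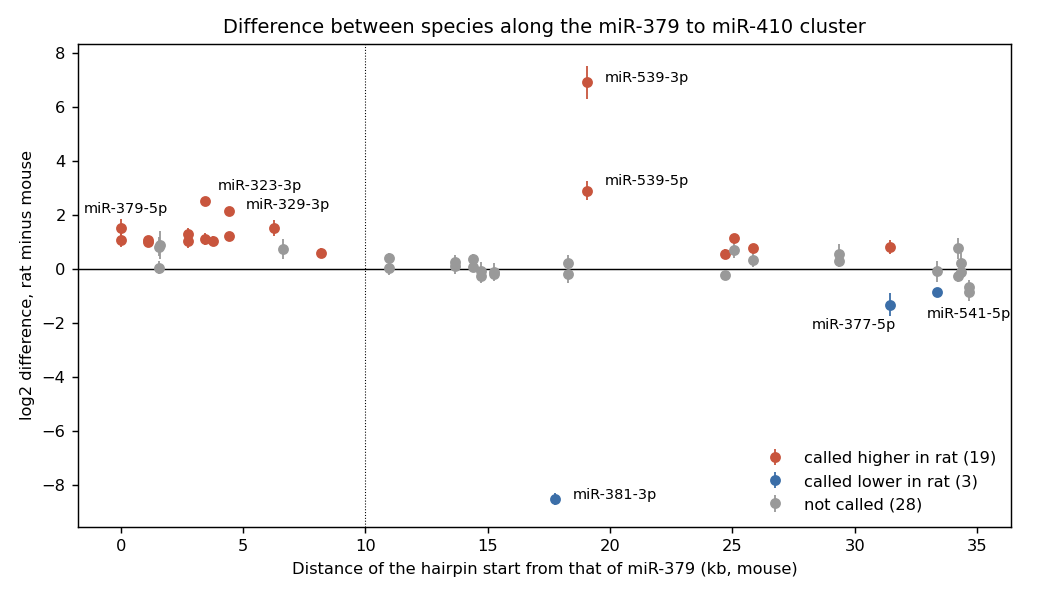
Log2 difference, rat minus mouse, of each of the 50 tested members (vertical axis; bars are the SE of the edgeR fit) against the distance of its hairpin start from that of miR-379 in mouse (horizontal axis, kb; dotted line at 10 kb). All 17 points left of the line are above 0 and 13 of them are called. Beyond it 19 of 33 are above 0, and miR-381-3p and both arms of miR-539 stand far from the rest. Over all 398 names tested, 25.6% were called higher and 24.4% lower, with a median of 0.08.

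Within 10 kb the number higher was 12 to 15 when a library was left out, and beyond it 4 to 12, the 12 without r1. Over all names it was 78 of 410 without m4 up to 151 of 413 without r1. Beyond 10 kb the called rises were both arms of miR-539, miR-134-5p, miR-382-3p, miR-485-3p and miR-377-3p. Of these, miR-539-3p entered the test through rat alone. Between 10 kb and miR-381, at 17.8 kb, lie miR-667, miR-376c, miR-376b, miR-376a and miR-300. The bounds of this stretch were set after the values were seen and stop short of called members, so its count of calls is a description only. Of its 10 tested arms 0 were called by edgeR or by DESeq2, with an unadjusted p under 0.05 for 0 and 1 of them. Without r1, edgeR called 3 of the 10. Over all names, edgeR called 199 of 398 with every library and 293 of 413 without r1, and DESeq2 called 208 of 398. The miR-376 strands, from hairpins known to be edited in brain, differed by -0.28 to 0.35 on the log2 scale. At the far end, miR-410-3p was at 54.1, 56.7 and 49.7 CPM in mouse and 21.7, 42.5 and 37.8 in rat, a difference of -0.65 ± 0.24 (SE; edgeR adjusted p = 0.0521) that missed the threshold though the groups did not overlap. It was called lower with RLE size factors (edgeR adjusted p = 0.0484), with no filter (0.0420), without r1 (0.00190) or r2 (0.0312), and by DESeq2 (adjusted p = 0.0277), and its adjusted p ranged up to 0.559 on library totals.

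Arms of a hairpin come from the same precursor, and 22 hairpins had both arms tested. In 6 of them, miR-379, miR-411, miR-380, miR-323, miR-329 and miR-539, both arms were higher in rat. All but miR-539 are in the first 10 kb, and the 3p arm of miR-539 entered the test through rat alone. In 11 hairpins neither arm was called, and in 4 (miR-134, miR-382, miR-485 and miR-541) only 1 arm was. The arms of miR-377 were called in opposite directions, with the 5p at -1.32 and the 3p at 0.80 ± 0.26 (SE; edgeR adjusted p = 0.0307), at mean levels of 0.398 to 2.07 CPM. That 3p call too was lost on library totals and without m1, m3, m4, r2 or r4. By arm, 12 of 28 tested 3p members were higher and 1 lower (median 0.65), and 7 of 22 5p members were higher and 2 lower (median 0.10). The 12 include miR-539-3p. Over all names tested, whatever the arm, 25.6% were higher and 24.4% lower. Shares over all names by arm or by hairpin are not given here, and the contrast between arms was not tested. Library r1 moved with the arm as well: its median ratio to r2 and r4 was 0.474 over 3p members and 0.709 over 5p members, against 0.608 and 0.603 over all 3p and 5p names of the rat.

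Among the near-identical pairs both members were called for the first only. There miR-379-3p was at 18.9, 22.1 and 21.1 CPM in mouse and 26.9, 53.7 and 48.7 in rat, a difference of 1.06 ± 0.26 (SE; edgeR adjusted p = 0.00783). miR-411-3p was at 40.2, 42.5 and 42.3 CPM in mouse and 72.0, 98.6 and 89.2 in rat, also by 1.06 ± 0.17 (SE; edgeR adjusted p = 9.25e-04). Both had r1 as the lowest rat library and no overlap between species. For miR-376b-5p the libraries overlapped, at 45.5, 49.9 and 38.8 CPM in mouse and 50.0, 44.5 and 46.9 in rat (0.07 ± 0.16, SE; edgeR adjusted p = 0.731), and miR-376c-5p was at 1.51, 0.825 and 0.914 against 1.37, 1.15 and 1.03 CPM (0.12 ± 0.32, SE; edgeR adjusted p = 0.783). miR-299a-3p was at 8.34, 8.98 and 7.72 CPM in mouse and 11.4, 6.89 and 7.71 in rat, and overlapped. miR-299b-3p was at 0.290, 0.516 and 0.508 against 1.61, 0.530 and 0.556 CPM (0.88 ± 0.52, SE; edgeR adjusted p = 0.190), with all rat libraries above mouse and r1 well above the others.

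The ratio of arms within a hairpin needs no scaling between libraries, and it was tested with limma on log2 of the 5p over the 3p counts, each plus 0.5, over 169 hairpins of at least 50 counts in every library, 24 of them in the cluster. Arm balance differed for 4 cluster hairpins, 1 toward 5p and 3 toward 3p in rat. Over all hairpins 24.3% differed, 8.28% toward 5p and 16% toward 3p. By the mean log2 ratio of a species, the more abundant arm was the same in both species for all 24, but for miR-369 this rested on r1. Its 5p arm gave 67.4% of counts in r1 and 42.8% and 39.3% in r2 and r4, and without r1 the rat ratio was -0.52 (limma adjusted p of the difference 0.0192). Without r1 the ratio of miR-376b in rat also fell below 0, to -0.18 (0.0508). The range of arm use was wide: in mouse, of 28 hairpins with enough counts, 4 gave over 90% of their counts from the 5p arm, 11 gave under 10%, and 13 lay between. Hairpins near balance in both species included miR-369, at 51.9% ± 1.12 from the 5p arm in mouse and 49.8% ± 15.3 in rat, and miR-376b, at 55.4% ± 1.07 and 51.1% ± 7.62 (SD, n = 3 each).

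In miR-329 the 5p arm gave 75%, 75.2% and 70.6% of counts in mouse and 61.4%, 56.7% and 60.4% in rat. The groups were apart, and both arms rose, the 3p arm more. The log2 ratio differed by -0.93 ± 0.20 (SE; limma adjusted p = 0.0194). In miR-323 the 5p arm was minor throughout, at 1.43%, 1.44% and 1.30% in mouse and 0.441%, 0.691% and 0.487% in rat, a difference of -1.41 ± 0.23 (SE; limma adjusted p = 0.00766). In miR-412, a 5p hairpin, the share was 94.2%, 95.5% and 95.5% in mouse and 88.2%, 90.9% and 91.9% in rat, by -1.01 ± 0.24 (SE; limma adjusted p = 0.0283). Groups did not overlap in miR-323 or in miR-412. The 3p arm of miR-412 was rare, at 17, 15 and 14 counts in mouse and 28, 27 and 24 in rat. Neither arm of miR-412 was called in level (edgeR adjusted p = 0.128 for 3p and 0.329 for 5p). The call of miR-381 (6.38 ± 0.71, SE; limma adjusted p = 0.00168) goes with its 3p fall, and its 5p arm had 5, 3 and 3 counts in mouse and 0, 0 and 3 in rat. Its size is set by the value added to the counts, and was 7.87 with 5 added in place of 0.5.

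These arm calls were not firm in number: 2 to 8 hairpins were called when a library was left out, 8 of them without r1 and 2 without m1, m3 or r2. The share of all hairpins called with a library left out is not given here, so these counts have no background to be read against. The call of miR-329 was lost without m1, m3, r2 or r4 and that of miR-412 without m1, m3, m4 or r2. In miR-382, whose arms are both abundant, the 5p share was 41.8%, 43.3% and 52.3% in mouse and 29.7%, 37.8% and 32.3% in rat. The groups were apart but the ratio was not called (-0.77 ± 0.26, SE; limma adjusted p = 0.0920).

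**Figure D4:**
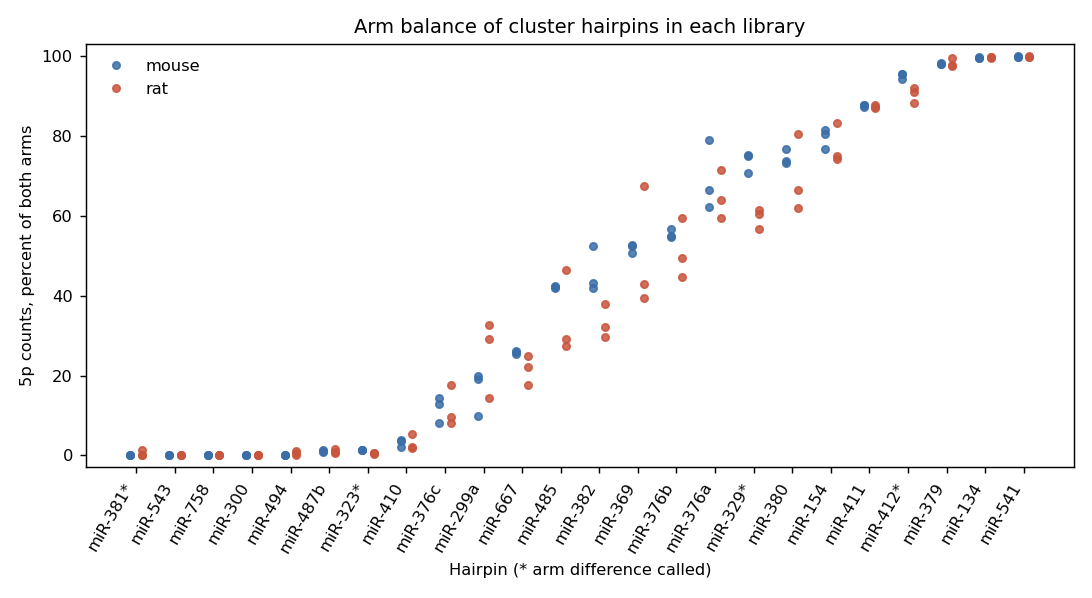
Percent of a hairpin's counts from the 5p arm (vertical axis) in each library for the 24 cluster hairpins tested, ordered by the mouse value, with mouse left and rat right of each tick; an asterisk marks a called difference. The hairpins run from nearly all 3p (miR-381, miR-543) to nearly all 5p (miR-134, miR-541), and in miR-329 all 3 rat points are below the mouse points.

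Members named differently in the tables were joined in an alternative that ignores a letter or a missing arm suffix. Of the 8 pairs so joined 6 could be tested, and 22 of 55 members were then higher and 5 lower, against 24.2% and 26.9% of all names so joined. Higher in rat were miR-496a-3p (mouse) with miR-496-3p (rat), by 1.30 ± 0.21 (SE; edgeR adjusted p = 0.00158), miR-409-3p with miR-409a-3p, by 0.85 ± 0.24 (SE; edgeR adjusted p = 0.0215), and miR-495-3p with miR-495, by 0.55 ± 0.15 (SE; edgeR adjusted p = 0.0191). The joined miR-668 differed by -0.68 ± 0.27 (SE; edgeR adjusted p = 0.0670) and was not called. For miR-679 the mouse libraries had 34, 35 and 35 counts of the 5p arm and the rat libraries 0, 0 and 2 counts under a name without an arm, a mouse to rat ratio of 55.6 with an exact 95% interval of 15.0 to 465 for counting error only. This pair is among the 5 called lower and entered the test through mouse alone. The rat name does not say which arm was counted.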

How the data were processed

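Retinal small RNA libraries were sequenced as 50-base single-end reads, per the labels' protocols. The authors deposited 1 table of raw counts per mature miRNA name for each species. The trimmer, the aligner, the annotation release and the rule for reads shared by several miRNAs: not given in the sources used here. The table columns name the species but not the labels' replicate numbers, so they were assigned to a species only. Both species carry the same protocol text, which speaks of rat eyes. Library totals are in the report, and as no label names separate animals, p-values measure only how these libraries vary, which may be technical.

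Species prefixes were removed and identical names joined. Counts were filtered with filterByExpr, scaled with TMM and tested in edgeR 4.0.16 (R 4.3.3) with species as the only term, with Benjamini-Hochberg adjustment over all 398 names. Arm ratios were tested in limma 3.58.1. DESeq2 1.42.0, other scalings, filters and name joins, and leaving out each library, were alternatives. Scripts were tested on simulated data. The cluster share was compared with an exact permutation test. Values per library are given for the 6 most abundant members of each species, the 6 largest called rises and falls among members of at least 10 CPM in a species, called arm differences, abundant members listed for 1 species and pairs within 2 mismatches. Members named outside this rule, among them miR-134-5p, miR-410-3p, miR-382 and the miR-377 and miR-539 arms, were chosen after their values were seen. The members and lists were chosen with earlier results of these data known.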

Additional observations from a re-analysis of the deposited data

How the results depend on the processing

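No called member or arm difference changed its sign under an alternative that tested it. Among those not called, 11 members and 7 arm ratios did, with 0 of the values of the other sign called. On library totals miR-300-3p moved to 0.022, miR-300-5p to 0.15, miR-369-5p to 0.15, miR-376a-3p to 0.18, miR-376a-5p to 0.018 and miR-541-3p to 0.21 (log2). With relaxed names miR-299a-3p moved to -0.023 and miR-667-5p to -0.028, and with a pseudocount of 5 the arm ratio of miR-410 to 0.020. With a library left out, the range was -0.19 to 0.20 for miR-299a-3p, -0.34 to 0.11 for miR-300-5p, -0.058 to 0.60 for miR-369-3p, -0.34 to 0.24 for miR-376a-3p, -0.045 to 0.43 for miR-376c-5p, -0.030 to 0.51 for miR-485-5p, -0.29 to 0.20 for miR-541-3p and -0.18 to 0.16 for miR-667-5p. For arm ratios it was -0.12 to 0.23 for miR-300, -0.63 to 0.21 for miR-369, -0.54 to 0.044 for miR-376a, -0.43 to 0.21 for miR-376c, -0.31 to 0.82 for miR-379, -0.57 to 0.18 for miR-410 and -0.93 to 0.87 for miR-494. The share of all counts differed by 0.145 percentage points, by 0.250 as a share of shared names, and by 0.118 to 0.193 with a library left out. Members higher in rat numbered 19, with 16 to 27 when a library was left out and 18 to 22 under other alternatives. Over all names tested, 102 of 398 were higher, with 78 of 410 without m4 up to 151 of 413 without r1. Under other alternatives 101 to 114 were higher, of 395 to 504 names tested. Members lower numbered 3, 4 with RLE factors or DESeq2, 6 with no filter on low counts, 5 with relaxed names and 2 to 8 with a library left out. Over all names tested, 97 of 398 were lower, 120 of 446 with relaxed names and 142 of 413 without r1. Lower counts over all names are not given here for the other alternatives. Those higher beyond 10 kb numbered 6 and ranged from 4 to 12 with a library left out. Hairpins with a called arm difference numbered 4 and ranged from 2 to 8, with no counts over all hairpins given beside that range. On library totals without further factors the median of all names moved from 0.08 to 0.33 and that of the members from 0.47 to 0.73, and 70.5% of calls over all names were higher in rat, against 51.3%, while members stood at 19 higher and 2 lower. Rare members are limited by depth: a floor of 3 counts is 0.119 to 0.242 CPM on the scaled counts. No paired analysis was possible because the table columns do not carry the labels' replicate numbers and no mouse is tied to a rat. The restriction to names with identical sequences in both species was not run, since rat sequences were not used here.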
